A study of Homo sapiens with 6 samples.

Results

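The set described here holds 158 protein-coding genes whose RNA was reduced more than 6-fold in MDA-MB-231-DR breast cancer cells treated with cyperotundone (CYT). Its members were chosen by measured values of the same 6 libraries, so their levels in these libraries are a description and carry no test. A protein-coding gene entered when its control mean was at least 5 CPM (the gene's count over the summed gene counts of the library, times 1000000), its CYT mean was at most a sixth of that, and every CYT library lay below every control library. Of 58302 genes in the table, 19817 were protein-coding, and 10348 of these had a control mean of at least 5 CPM. The rule was met by 163 of them (1.58%). SRSF1, CYR61, ANKRD1, KRT19 and SPDEF also met it and were left out by name, and ELF3, also named, did not reach the control floor.

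MDA-MB-231 is an established line of triple-negative breast cancer cells with a mesenchymal form, and MDA-MB-231-DR is its doxorubicin-resistant derivative, kept in medium with a low concentration of doxorubicin. The sample titles name MDA-MB-231-DR, and the cell line field of the labels names MDA-MB-231. CYT is a sesquiterpenoid ketone of the sedge Cyperus rotundus. The mRNA in total RNA was made into 3 control libraries of MDA-MB-231-DR cells and 3 libraries of the same line treated with CYT. The CYT dose, the exposure time and the use of a vehicle in the control libraries are not given in the sources used here. The labels do not say whether the 3 libraries of a group came from separate cultures, so the p-values below measure the spread between libraries only.

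The amount of an mRNA in a cell is set by its synthesis and its decay, and many genes that respond to growth factors have short-lived transcripts whose levels fall fast when the stimulus or transcription stops. The MAP kinase ERK carries the signal of receptors such as EGFR, and its response genes include phosphatases that act back on it. BRSK1 and BRSK2 belong to the AMPK-related kinases, most of which are switched on by the tumour suppressor kinase LKB1 (STK11). BRSK1 and BRSK2 are best known for their role in the polarity of neurons.

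Windows of 3 members are shown because the results describe these genes in full: BRSK2 and its close relative BRSK1, and the secreted ligand DKK1. Each is the 250 bases before the most upstream start listed for the gene in the RefSeq table (GRCh38.p14), written 5′ to 3′ on the gene's strand. The table of counts gives BRSK2 the locus chr11:1389899-1462689 and BRSK1 the locus chr19:55282072-55312533, so both windows lie inside the genes as counted, before an internal start, and only that of DKK1 lies before the whole locus. The last 21 bases of the BRSK2 window overlap an annotated 5′ UTR. Capitals mark the searched motifs found on either strand, and no marked motif overlaps another.
BRSK2 window, chr11:1409171-1409420, plus strand: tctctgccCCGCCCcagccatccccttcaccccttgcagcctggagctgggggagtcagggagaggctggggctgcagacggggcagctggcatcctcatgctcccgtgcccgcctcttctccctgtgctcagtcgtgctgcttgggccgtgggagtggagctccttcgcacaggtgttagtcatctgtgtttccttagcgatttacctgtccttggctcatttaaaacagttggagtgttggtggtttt
BRSK1 window, chr19:55283747-55283996, plus strand: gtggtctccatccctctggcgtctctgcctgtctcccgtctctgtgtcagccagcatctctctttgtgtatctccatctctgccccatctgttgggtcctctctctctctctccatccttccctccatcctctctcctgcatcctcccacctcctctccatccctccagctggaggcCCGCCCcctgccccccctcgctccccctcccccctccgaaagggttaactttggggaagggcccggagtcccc
DKK1 window, chr10:52314031-52314280, plus strand: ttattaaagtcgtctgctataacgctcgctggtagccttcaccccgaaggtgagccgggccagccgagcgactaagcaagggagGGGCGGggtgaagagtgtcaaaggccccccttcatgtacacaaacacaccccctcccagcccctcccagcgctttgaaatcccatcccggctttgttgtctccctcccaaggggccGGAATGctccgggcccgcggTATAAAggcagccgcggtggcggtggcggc

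The GC box letters GGGCGG (or CCGCCC on the other strand) were found in all 3 of these windows and in 45.0% of the 35116 RefSeq promoters (windows of 250 bases before the start and 50 after it). DKK1 also held TATAAA, found in 11.5% of all promoters, and GGAATG, found in 14%. The other motifs searched on both strands were CCAAT (34.6% of all promoters), CACGTG (7.3%), TGACTCA (4.9%), TGACGTCA (1.8%), and one fixed form each of the SRF (0.0%) and NF-κB (0.2%) motifs, none of which was found in these 3 windows. Over the promoters matched to 8414 other coding genes with a control mean of at least 5 CPM, the shares were 72.7% for GGGCGG, 5.09% for TATAAA, 10.6% for GGAATG, 37.5% for CCAAT and 10.6% for CACGTG, so the GC box is common among genes of this level. Promoter sequences could be matched to 116 of the 158 members, which is too few for a comparison of promoters between the set and other genes, so none is made. IER3, FOSL1 and LIF were not matched.

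Across the set the control mean had a median of 29.5 CPM and ran from 5.07 CPM (GNAZ) to 1053 CPM (PHLDA1), and the CYT mean had a median of 3.55 CPM. The ratio of the control mean to the CYT mean, called the fold reduction here, had a median of 7.98 and ran from 6.01 (SNCG) to 22.7 (BRSK2). It was at least 8 in 78 members, at least 10 in 44, at least 15 in 14 and at least 20 in 4. The 158 genes together made up 1.11%, 0.975% and 1.03% of all counts in the control libraries, in order of replicate, and 0.165%, 0.087% and 0.142% in those of CYT. These are bulk libraries, in which fewer cells that express a gene and less of its RNA per cell cannot be told apart. CPM values are shares of a library, so a fall here is a fall relative to the rest of the RNA.

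**Figure D1:**
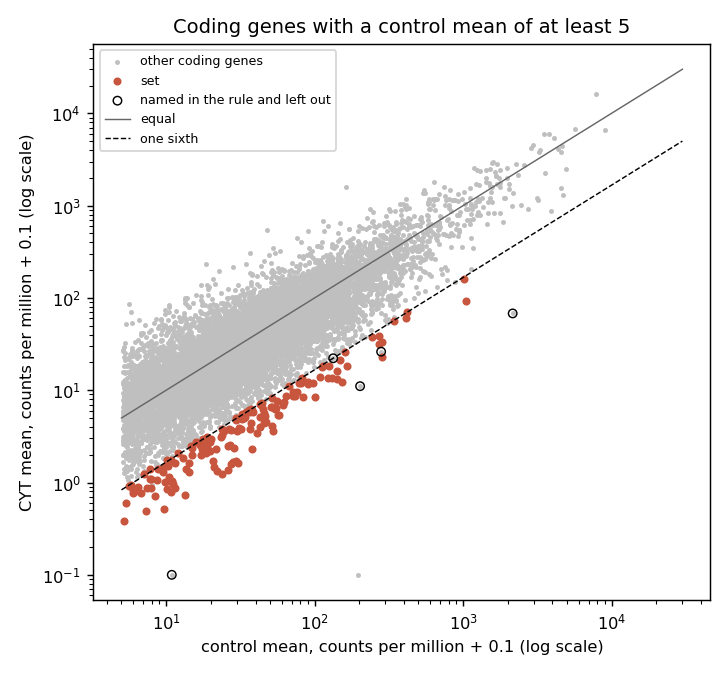
Mean of 3 CYT libraries against mean of 3 control libraries for each coding gene with a control mean of at least 5, both in CPM plus 0.1 on log scales. The 158 members (red) lie below the dashed line at a sixth of the control mean, open circles mark genes that the rule leaves out by name, and the grey point at the bottom right is BLOC1S5-TXNDC5, whose libraries overlap.

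On the log2 scale of an edgeR fit over 15572 genes with TMM normalization, the median change of the members was -3.01, with a range of -4.53 to -2.59. The median over all genes tested was 0.0064, and over the other coding genes with a control mean of at least 5 CPM it was -0.16. In that fit 12.9% of all genes tested were lower and 15.7% were higher in CYT at an adjusted p under 0.05, against 157 lower of the 158 members (all but ZNF146), a count that the choice of the members on this contrast fixes.

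The limits of the rule cut through a continuous range. Just inside the fold limit were SNCG and SNRNP35 (6.01 each) and FRMD5 (6.02), and just outside it RAP1GAP2 (5.99), ADGRA2 (5.95) and PALM (5.95). Just inside the floor on the control mean were GNAZ (5.07 CPM), DMBT1 (5.26 CPM) and SPERT (5.53 CPM), and just outside it RASGEF1A (4.96 CPM), LDHD (4.95 CPM) and ASTN2 (4.91 CPM).

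Summed gene counts were 14050849 to 17770102 for control libraries and 13056270 to 14106017 for CYT libraries. CYT replicate 2 stood apart: its correlation with CYT replicates 1 and 3 across genes (log2 levels of the genes tested) was 0.906 and 0.905, while the correlation of CYT replicates 1 and 3 was 0.970 and those of the control pairs were 0.953 to 0.971. All 10 markers of the mesenchymal MDA-MB-231 line were present, with summed levels of 5638 to 6814 CPM in control and 3404 to 3747 CPM in CYT. The 12 luminal markers summed to 722 to 935 CPM in control and 400 to 598 CPM in CYT, most of it KRT8, KRT18 and XBP1 (316, 275 and 134 CPM in control), with MLPH at 67.6 and 13.9 CPM. ESR1, PGR, TFF1 and EPCAM stayed under 1 CPM in every library, and CDH1 was at 0 in control and reached 1.23 CPM in 1 CYT library. Of the other cell types, 6 fibroblast markers summed to 20.2 to 33.3 CPM in control and 4.75 to 6.66 CPM in CYT, nearly all of it COL1A1 (14.7 and 3.39 CPM) and PDGFRB (10.8 and 1.86 CPM), with COL1A2 at 0 in control and DCN at 0 in every library. Summed markers of basal epithelium (8 genes), leukocytes (7), endothelium (5), neurons (8) and red cells (5) stayed at or under 22.5 CPM in every library. What part these signals have in the levels of the members was not tested.

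Genes of growth factor, cytokine and ERK responses made up 14 members, with a median fold reduction of 7.79. PHLDA1, a pleckstrin homology-like domain protein induced by growth factors, measured 878, 1261 and 1021 CPM in control and 100, 101 and 78.7 CPM in CYT. IER3, an immediate early gene, measured 1098, 961 and 999 CPM in control and 240, 79.3 and 162 CPM in CYT. Per length these were among the most abundant members in control, with 393 FPKM (fragments scaled by gene length and library size) for IER3 and 101 FPKM for PHLDA1, beside 139 FPKM for the histone gene H2AFX and a median of 4.80 FPKM over the set. Both genes fell in all 3 CYT libraries far below the control range, PHLDA1 11.3-fold and IER3 6.36-fold, and the CYT libraries of PHLDA1 lay closer together than those of IER3.

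DKK1, a secreted inhibitor of Wnt signalling, had 223, 363 and 263 CPM in control and 25, 26.3 and 17.5 CPM in CYT, a 12.3-fold reduction and the deepest of this group. DUSP4, a phosphatase that switches off ERK, had 334, 342 and 357 CPM in control and 63.0, 55.5 and 51.4 CPM in CYT. EGFR, the receptor for epidermal growth factor, had 179, 174 and 130 CPM in control and 34.5, 14.6 and 28.0 CPM in CYT. FOSL1, the AP-1 subunit FRA1, had 161, 93.6 and 192 CPM in control and 31.3, 6.97 and 24.6 CPM in CYT. The libraries of DUSP4 were the most alike in each group, and CYT replicate 2 gave the lowest value for EGFR and FOSL1. The secreted factors LIF, IL18 and CSF2 fell 7.94-, 7.89- and 7.69-fold, from control means of 109, 50.6 and 23.2 CPM. The other members here were PTGES, which makes prostaglandin E2 (8.49-fold), the adaptor GAB2 (8.18-fold), the phosphatases PTPRE (10.3-fold) and DUSP9 (6.25-fold), and the lipase inhibitor G0S2 (6.08-fold).

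Kinases and genes of G protein signalling were 16 members with a median fold reduction of 9.20. BRSK2 had the largest fold reduction of the whole set. It measured 12.6, 5.57 and 10.4 CPM in control and 0.496, 0.460 and 0.298 CPM in CYT, or 218, 99 and 146 counts against 7, 6 and 4. The log2 change was -4.53 with a standard error of 0.52, and the lowest control library was 11.2 times the highest CYT library. BRSK1 measured 36.1, 14.4 and 31.2 CPM in control and 4.18, 2.37 and 4.17 CPM in CYT, a 7.62-fold reduction. In both genes control replicate 2 was the lowest control library.

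MOB3A, of the MOB family of kinase adaptors, had 225, 111 and 162 CPM in control and 27.5, 8.43 and 19.2 CPM in CYT. TNFAIP8L1 had 52.7, 39.2 and 45.4 CPM in control and 7.51, 1.99 and 7.0 CPM in CYT. In both genes CYT replicate 2 was the lowest library by a wide step. KCNN4, a calcium-activated potassium channel, had 38.4, 19.5 and 24.1 CPM in control and 2.20, 0.153 and 2.16 CPM in CYT. GNAZ, a G protein alpha subunit, had 5.99, 4.16 and 5.05 CPM in control and 0.638, 0 and 0.223 CPM in CYT. The low CYT levels of these genes rest on few counts, and the 18.2-fold and 17.7-fold reductions of KCNN4 and GNAZ carried standard errors of 0.74 and 0.78 on the log2 scale. The further members were the G protein regulators RGS14 (12.2-fold) and GPSM1 (15.4-fold), the G protein subunits GNA15 and GNB1L, where the latter is a beta-like protein (6.24- and 11.0-fold), the receptors ADGRG1 and CHRM3 (9.36- and 10.1-fold), the adaptor TICAM1 (6.87-fold), the phosphatase subunit PPP2R2C (7.89-fold) and the cyclic AMP phosphodiesterase PDE4B (6.92-fold).

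**Figure D2:**
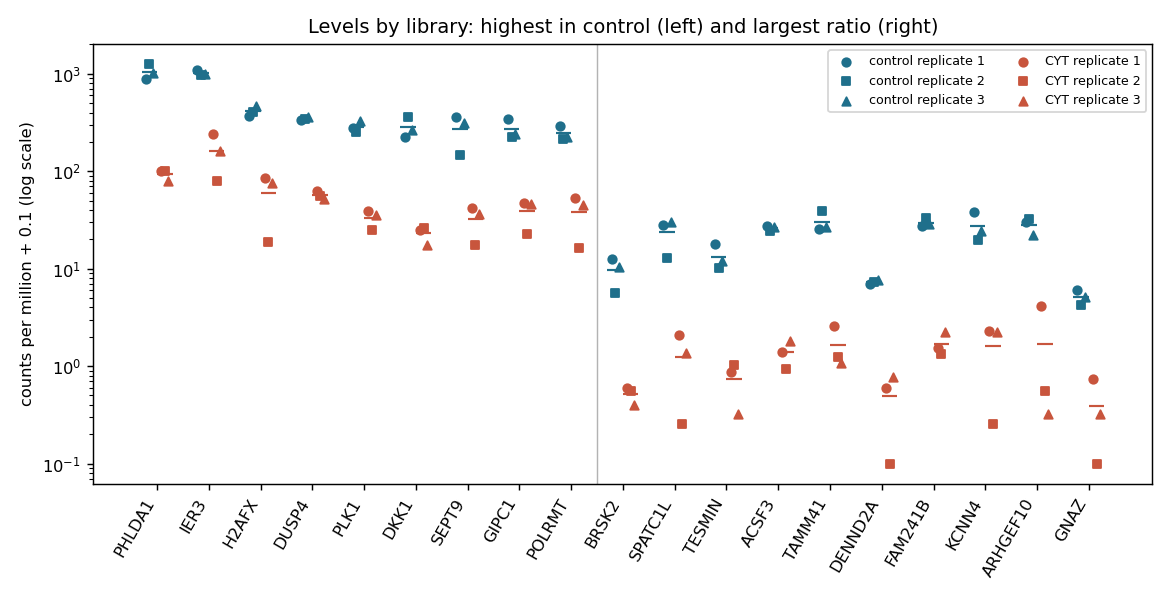
Level of 19 members in each of the 6 libraries, in CPM plus 0.1 on a log scale, with 9 of the 10 highest control means on the left and the 10 largest fold reductions on the right. Symbols mark the replicate, short lines the mean of 3, and the 2 points at the bottom are counts of 0 for DENND2A and GNAZ in CYT replicate 2.

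Genes of mitosis, DNA replication and repair were 9 members with a median fold reduction of 8.67. PLK1, the kinase that drives entry into and passage through mitosis, had 276, 254 and 329 CPM in control and 39.1, 24.7 and 35.2 CPM in CYT. H2AFX, the histone variant phosphorylated at DNA breaks, had 365, 409 and 469 CPM in control and 85.4, 18.5 and 76.1 CPM in CYT. The control libraries of both genes lay close together, while CYT replicate 2 of H2AFX was far below the other CYT libraries. KIF18B, a mitotic kinesin, had 71.8, 49.9 and 71.2 CPM in control and 12.4, 6.20 and 7.38 CPM in CYT. RTEL1, a DNA helicase of telomere upkeep, had 71.8, 34.0 and 30.6 CPM in control and 3.83, 2.91 and 6.11 CPM in CYT. BUB1B, the spindle checkpoint kinase, fell 9.92-fold from a control mean of 36.6 CPM, ORC5 of the replication origin complex 6.04-fold from 32.4 CPM, and the spindle positioning gene MISP 10.9-fold from 26.9 CPM. CCDC61 (8.94-fold) and the ciliary gene MKS1 (6.08-fold) complete the group.

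Genes of adhesion, junctions and the cytoskeleton were 24 members with a median fold reduction of 7.95. SEPT9, a septin that forms filaments, had 357, 148 and 315 CPM in control and 42.3, 17.2 and 36.2 CPM in CYT. JPT2 had 125, 183 and 153 CPM in control and 7.09, 3.06 and 26.8 CPM in CYT. KRT80, an epithelial keratin, had 175, 131 and 119 CPM in control and 20.1, 7.58 and 20.8 CPM in CYT. The second replicate was lowest in both groups for SEPT9, and CYT replicate 3 of JPT2 was well above the other CYT libraries. Focal adhesion and integrin genes in the group were TNS3 (6.90-fold), TNS4 (12-fold), ITGB4 (8.36-fold), TGFB1I1 (7.56-fold) and FBLIM1 (6.92-fold). Genes of desmosomes, junctions and polarity were PKP3 (6.20-fold), EVPL (10.9-fold), CDH4 (7.27-fold), MAGI1 (6.16-fold), PARD6A (6.19-fold) and SHROOM2 (7.98-fold). Genes of the cortex and of actin binding were DBN1 (10.6-fold), PODXL (10-fold), PDLIM2 (7.81-fold), FRMD4A (6.87-fold) and FRMD5 (6.02-fold). TUBB4A, a beta tubulin (14.7-fold), TSPAN15 (6.19-fold) and the keratin-associated genes KRTAP2-3 and KRTAP2-4 (7.98- and 7.92-fold) were the remaining members, and the last pair are near-identical neighbours whose reads the counting could split.

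Small GTPase regulators and effectors were 12 members with a median fold reduction of 9.07. DEF6, an exchange factor for RAC and CDC42, had 105, 59.1 and 64.6 CPM in control and 11.3, 5.97 and 11.1 CPM in CYT. RAC3, a small GTPase of cell motility, had 33.7, 27.7 and 78.1 CPM in control and 5.25, 2.60 and 7.75 CPM in CYT. ARHGEF10, an exchange factor, had 30, 32.1 and 22.2 CPM in control and 4.04, 0.460 and 0.223 CPM in CYT. Control replicate 3 set the high mean of RAC3, and CYT replicate 1 supplied most of the CYT mean of ARHGEF10. DENND2A, a RAB exchange factor, had 6.91, 7.15 and 7.54 CPM in control and 0.496, 0 and 0.670 CPM in CYT. The other members were the exchange factors TIAM1 (11.0-fold), ARHGEF10L (9.28-fold) and NGEF (6.45-fold), the GTPase-activating genes AGAP1 (6.22-fold), AGAP2 (12.5-fold) and ARHGAP40 (9.21-fold), WIPF2 of actin assembly (8.68-fold) and PAK1IP1 (6.11-fold).

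Genes of membrane traffic were 14 members with a median fold reduction of 7.69. GIPC1, an adaptor of receptor endocytosis, had 344, 225 and 239 CPM in control and 47.5, 22.5 and 45.9 CPM in CYT. CHMP6, of the ESCRT-III complex, had 123, 85.3 and 86.0 CPM in control and 15.1, 4.06 and 16.2 CPM in CYT. RPH3AL, of regulated secretion, had 104, 94.5 and 70.9 CPM in control and 11.9, 10.2 and 14.3 CPM in CYT. CYT replicate 2 was lowest in each, by the smallest step in RPH3AL. The group also held STX1A (7.90-fold), HID1 (6.40-fold), SNX21 (7.17-fold), SNX22 (8.46-fold), PLLP (6.11-fold), SNCG (6.01-fold), RAB27B (7.47-fold), MVB12B (11.7-fold), TSNARE1 (10.5-fold), MALL (13.3-fold) and the phospholipid flippase ATP8B1 (8.89-fold).

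Genes of RNA processing, ribosomes and mitochondrial gene expression were 12 members with a median fold reduction of 6.83. POLRMT, the mitochondrial RNA polymerase, had 291, 216 and 224 CPM in control and 52.5, 16.2 and 45.1 CPM in CYT. LSM2, of the U6 snRNA and mRNA decay LSM rings, had 149, 120 and 121 CPM in control and 18, 9.42 and 12.9 CPM in CYT. DDX17, an RNA helicase, had 104, 146 and 116 CPM in control and 18.7, 15.2 and 6.18 CPM in CYT. DDX17 was lowest in CYT replicate 3, unlike the other 2. Further members were NLE1 of ribosome assembly (7.72-fold), the mitochondrial threonyl-tRNA synthetase TARS2 (6.89-fold), TMEM223 (8.56-fold), the tRNA-modifying enzyme DUS2 (6.75-fold), PDCD2L (6.77-fold), FRA10AC1 (6.12-fold), FAM207A (6.78-fold), SNRNP35 of the minor spliceosome (6.01-fold) and DPH6 of diphthamide synthesis (8.0-fold).

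Transcription factors and chromatin genes were 16 members and had the lowest median fold reduction of the 10 role groups, 6.68. NFIC, of the nuclear factor I family, had 149, 89.6 and 100 CPM in control and 34.0, 9.80 and 10.1 CPM in CYT. TBL1X, of the NCoR corepressor complex, had 92.3, 78.8 and 74.0 CPM in control and 17.9, 7.20 and 15.1 CPM in CYT. In both genes CYT replicate 1 was the highest CYT library. The nuclear receptors RXRA and THRA fell 10.7- and 6.48-fold, the basic helix-loop-helix factor TFAP4 7.42-fold, and GTF2IRD1 8.86-fold. Zinc finger genes were ZNF512B (17.3-fold), ZNF205 (9.01-fold), ZNF444 (8.71-fold), ZBTB12 (7.87-fold), ZNF587 (6.78-fold), ZNF784 (6.57-fold) and ZNF146 (6.31-fold). TTC5 (6.36-fold), VPS72 of histone exchange (6.28-fold) and SUPT3H of the SAGA complex (6.07-fold) complete the group.

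Genes of metabolism, peroxisomes and glycosylation were 17 members with a median fold reduction of 7.42. PFAS, an enzyme of purine synthesis, had 80.4, 60.8 and 44.9 CPM in control and 8.93, 4.83 and 8.34 CPM in CYT. ACOX2, a peroxisomal oxidase of branched fatty acids and bile acid intermediates, had 50.6, 54.9 and 52.5 CPM in control and 1.98, 4.52 and 4.17 CPM in CYT. ACSF3, a mitochondrial malonyl-CoA synthetase, had 27.5, 24.3 and 26.6 CPM in control and 1.28, 0.843 and 1.71 CPM in CYT. ACOX2 and ACSF3 had tight control libraries, and ACOX2 was lowest in CYT replicate 1. TAMM41, of mitochondrial cardiolipin synthesis, had 25.4, 38.6 and 26.9 CPM in control and 2.48, 1.15 and 0.968 CPM in CYT, a 19.8-fold reduction. DHODH of pyrimidine synthesis (7.35-fold), PEX14 of peroxisomal import (6.36-fold), the secretory kinase FAM20C (6.06-fold), UAP1L1 (7.42-fold), the fucosyltransferase FUT1 (6.33-fold), the sulfotransferase HS3ST1 (11.0-fold), PGPEP1 (10.5-fold), SLC35F3 (6.76-fold), CUTC (7.14-fold), RSAD1 (6.88-fold), NAT8L (6.64-fold), METTL7A (7.97-fold) and METTL7B (8.97-fold) were the others.

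The last 24 members, of ubiquitin conjugation, scaffolds and less characterised genes, had a median fold reduction of 9.84. SPATC1L had 28.2, 12.8 and 30 CPM in control and 1.98, 0.153 and 1.27 CPM in CYT. TESMIN, a testis-expressed metallothionein-like gene, had 17.6, 10.1 and 12 CPM in control and 0.780, 0.919 and 0.223 CPM in CYT. FAM241B had 27.2, 33.1 and 28.3 CPM in control and 1.42, 1.23 and 2.16 CPM in CYT. These fell 20.9-, 20.6- and 18.4-fold, with CYT replicate 2 lowest for SPATC1L and FAM241B only. C7orf50 had 85.4, 69.3 and 81.3 CPM in control and 13.2, 7.97 and 14.8 CPM in CYT. UBE2E2, a ubiquitin-conjugating enzyme (8.66-fold), ASB13 (12.9-fold) and SH3RF3 (9.84-fold) of ubiquitin ligation, and the palmitoyltransferase ZDHHC18 (6.06-fold) were also members. The rest were CCDC106 (7.35-fold), GRAMD4 (6.80-fold), PNMA8A (12.9-fold), TMEM209 (7.02-fold), CCDC9B (11.8-fold), FAM69B (7.41-fold), FAM131C (12.7-fold), SH3TC1 (13.3-fold), SH3TC2 (15.2-fold), LRRC26 (9.85-fold), FAM50B (9.51-fold), SPERT (6.74-fold), DMBT1 (10.6-fold) and the read-through or overlapping genes PTGES3L-AARSD1, C15orf38-AP3S2 and AL360181.3, taken up below.

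MIG7, given with BRSK2 as a marker of the set, is not one of the 158, because the table gives it no gene type. It measured 127, 142 and 145 CPM in control and 4.40, 3.22 and 2.91 CPM in CYT, or 2207, 2516 and 2036 counts against 62, 42 and 39. The 39.3-fold reduction (97.5% lower) is beyond that of every member, and the replicates of each group lay close together. Of 263 genes without a type in the table, 3 had a control mean of at least 5 CPM, and MIG7 was the only one of these to meet the other parts of the rule. Its locus, chr1:93752924-93775444 (hg38), lies inside that of BCAR3, an adaptor of integrin and antiestrogen-resistance signalling. BCAR3 measured 142, 133 and 125 CPM in control and 37.1, 33.2 and 25.6 CPM in CYT, a 4.17-fold reduction. Whether reads of the 2 genes can be told apart depends on how reads of overlapping genes were counted, which is not given in the sources used here.

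The members differed in how far each CYT library fell. Their median level was 14.4% of the control mean in CYT replicate 1, 7.91% in CYT replicate 2 and 12.5% in CYT replicate 3. CYT replicate 2 was the lowest CYT library for 104 members (65.8%), beside 39.5% of the other coding genes with a control mean of at least 5 CPM. Control replicate 1 was the highest control library for 76 members (48.1%), beside 30.9% of those other genes. The median coefficient of variation over control libraries was 22.1% in the set and 23% in the other genes, and over CYT libraries 41.1% and 33.6%. A gap between the groups is asked for by the rule, so its width is a description only. The lowest control library was at least 3 times the highest CYT library in 136 members and at least 4 times in 103. This ratio was under 2 in 7 members, namely AL360181.3 (1.11), FAM207A (1.31), CCDC9B (1.39), SNX22 (1.48), C15orf38-AP3S2 (1.5), ZNF146 (1.71) and SNRNP35 (1.72).

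**Figure D3:**
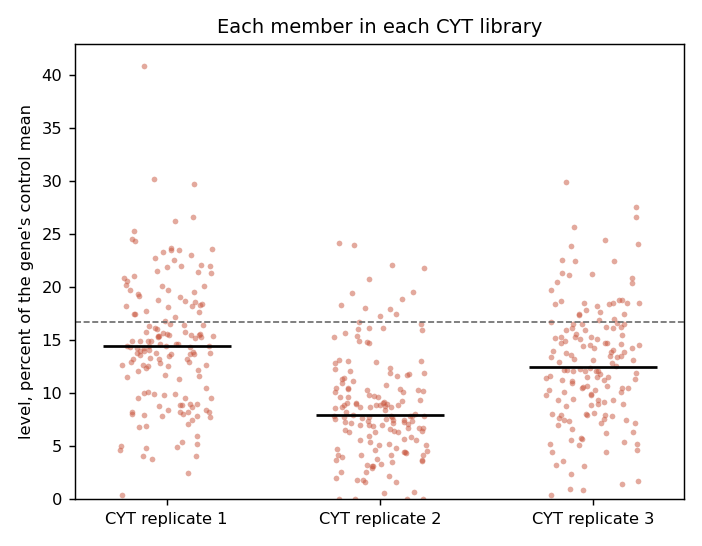
Level of each of the 158 members in each CYT library, as a percent of the gene's control mean, with the median as a black line and a sixth of the control mean as a dashed line. The medians are 14.4%, 7.91% and 12.5%, and 109, 144 and 124 members lie at or under the dashed line in CYT replicates 1, 2 and 3.

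Without CYT replicate 2 the members' median fold reduction was 7.01 and the smallest 4.36, with 143 of 158 at 5 or more and 117 at 6 or more. The rule applied to the other 5 libraries was met by 155 genes, of which 117 were members. Leaving out each library in turn kept between 117 and 149 members, and 89 met the rule whichever library was left out. BRSK2, BRSK1, PHLDA1, DKK1, PLK1, SEPT9, KRT80, LIF, CSF2, BUB1B and TIAM1 were among these 89. IER3, H2AFX, EGFR, FOSL1, GIPC1 and POLRMT were not: without CYT replicate 2 their fold reductions were 5.08, 5.13, 5.15, 5.33, 5.77 and 5.0, and they did not meet the rule with levels corrected for GC content either. DUSP4, at 6.02 without CYT replicate 2, fell under 6 without control replicate 3 (5.97) and without CYT replicate 3 (5.81), and did not meet the rule with the GC correction. Of the 89, 75 met the rule with the GC correction too, and BRSK1 did not.

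One library moved the fold reduction of 31 members by over 1.5 times. Without CYT replicate 1 it went from 6.31 to 30.2 for ZNF146 (4.78 without CYT replicate 2), from 17.9 to 82.3 for ARHGEF10, from 17.7 to 45.4 for GNAZ, from 20.9 to 33.4 for SPATC1L, from 9.85 to 18.7 for LRRC26, from 13.3 to 24.1 for SH3TC1, from 8.97 to 16.5 for METTL7B and from 6.28 to 11.4 for NFIC, and also rose for HID1 (9.69), RSAD1 (10.9), MKS1 (10.2), PPP2R2C (13) and PGPEP1 (16.3). Without CYT replicate 3 it was 30.3 for JPT2, 40.5 for PTGES3L-AARSD1, 33.9 for GPSM1, 29 for DENND2A, 16.6 for AL360181.3, 12.6 for PDLIM2, 11.6 for CDH4, 11.3 for ZNF587, 10.4 for FBLIM1 and 9.81 for DUSP9. CYT replicate 2 moved SH3TC2 (15.2 to 29.6) and METTL7A (7.97 to 12.6), and C15orf38-AP3S2 went from 17.4 to 299 without it and to 5.07 without control replicate 3. Control replicate 3 also moved CCDC9B (7.2 without it), RAC3 (5.9) and SNRNP35 (3.79), control replicate 1 moved EVPL (7.22) and control replicate 2 moved RAB27B (4.76). The size of the fold reduction of these 31 members thus depends on single libraries. It was smaller without the library named in CCDC9B, RAC3, SNRNP35, EVPL and RAB27B, went both ways in C15orf38-AP3S2 and was larger in the others.

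GC content was not used to choose the members and is described here without a test. The longest coding transcript in GENCODE 29 had a median GC content of 57.3% (interquartile range 51.4 to 62.0%) over the 158 members, and of 48.6% (42.2 to 57.0%) over 10152 other coding genes with a control mean of at least 5 CPM. When all these genes were split by GC content into 5 bins of equal size, the bins held 5, 16, 20, 54 and 63 members from the lowest to the highest GC. LRRC26 had the highest GC content, 74.7%, followed by ZNF444 with 68.6%, and RAC3, PKP3, SPATC1L, H2AFX and POLRMT lay between 66.3% and 66.7%. Transcript length (median 3152 and 3454 bases), exon number (9 and 9), 3′ untranslated length (1096 and 1340 bases) and the share of genes with an AU-rich nonamer in that region (8.23% and 9.41%) differed little beside their spread.

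The same libraries differed along GC content over coding genes at large. In CYT replicate 2 the median log2 ratio to the control mean went from 0.64 in the lowest GC bin to -1.32 in the highest, while it stayed between -0.39 and -0.13 in CYT replicate 1 and between -0.50 and -0.20 in CYT replicate 3. Control replicate 1 went from -0.37 to 0.20 and control replicate 2 from 0.44 to -0.27. Without CYT replicate 2 the genes meeting the rule had a median GC content of 54.7%. With each library's levels divided by its trend on GC content, 96 genes met the rule, 92 of them members, with a median of 56.3%. The part of this trend in the levels of the members was not tested further.

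**Figure D4:**
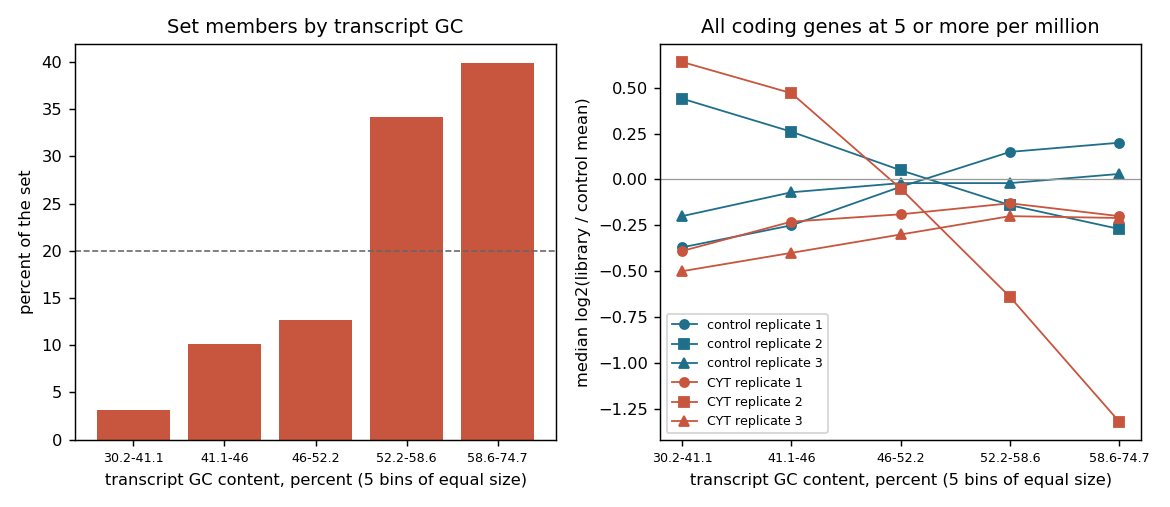
Left, percent of the 158 members in each of 5 equal bins of coding genes by transcript GC content, with a dashed line at an even share of 20%. Right, median log2 ratio of each library to the control mean in the same bins (2063 genes each, 0.1 CPM added), where CYT replicate 2 falls from 0.64 to -1.32.

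Members lay on all autosomes and on chromosome X, described here without a test. Chromosome 19 held 22 of them (13.9%, beside 6.41% of other coding genes with a control mean of at least 5 CPM) and chromosome 17 held 18 (11.4%, beside 6.13%). Chromosome 14 held 1 member (0.633%, beside 3.44%). The other coding genes of chromosomes 19 and 17 had median GC contents of 60.1% and 54.6%. Without CYT replicate 2, chromosome 19 held 8.39% and chromosome 17 held 11.0% of the genes meeting the rule, and with the GC correction 8.33% and 11.5%, so the share of chromosome 19 moved by more than 1.5 times and that of chromosome 17 did not. Another member lay within 100 kb of 16 members (10.1%), beside 4.86% of the other coding genes. The pairs included KRTAP2-3 and KRTAP2-4, ZNF784 and CCDC106, TBL1X and SHROOM2, RGS14 and DBN1, UAP1L1 and LRRC26, and LSM2 and ZBTB12, with gaps from 5.0 kb to 92.6 kb.

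**Figure D5:**
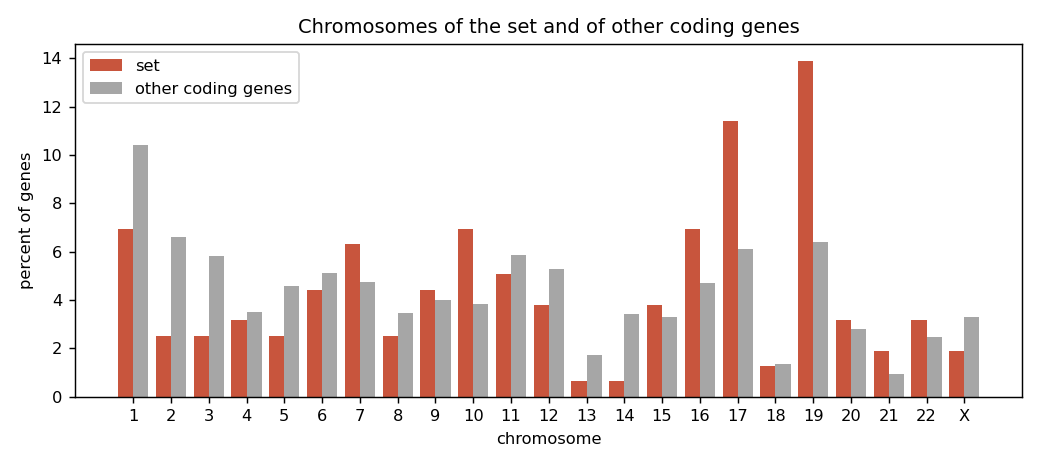
Percent of the 158 members (red) and of the other coding genes with a control mean of at least 5 CPM (grey) on each chromosome, with chromosomes 19 (13.9% and 6.41%) and 17 (11.4% and 6.13%) furthest above the other genes.

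Some members share sequence with other genes, and their counts depend on how shared reads were given out, which is not stated. In GENCODE 29, 21 members share exon sequence with another gene on the same strand, 44 only with a gene on the opposite strand, and 93 with neither. In 9 members the overlapping genes rose by at least 25% of what the member lost in mean CPM. These were STX1A (170%, with BUD23), ZBTB12 (112%, with C2), THRA (76.8%, with NR1D1), TNFAIP8L1 (67.8%), AGAP2 (62.5%), ZNF205 (59.8%), DUS2 (46.1%), METTL7B (38.1%) and GPSM1 (30.8%). In other members the overlapping genes fell by more than the member lost. These were PEX14 (-315%, with DFFA), FAM69B (-186%), DENND2A (-171%, with ADCK2), SNX21 (-150%), C15orf38-AP3S2 (-407%) and AL360181.3 (-517%). PTGES3L-AARSD1 measured 61.8, 52.7 and 50.9 CPM in control and 1.35, 1.38 and 16.5 CPM in CYT. AARSD1, which it contains, measured 14.1, 10.6 and 16.9 CPM in control and 20.7, 18.5 and 4.62 CPM in CYT. CYT replicate 3 was thus the highest CYT library for the read-through gene and the lowest for its part. The values of these members are given as uncertain.

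Families related to the members or to the genes left out by name were described by gene lists, as counts of genes past an adjusted p of 0.05 in the edgeR quasi-likelihood test, to be read beside 12.9% lower, 15.7% higher and a median log2 change of 0.0064 over all genes tested. With the replicate number as a block the shares over all genes were 19.8% lower and 20% higher, and the block counts below are to be read beside these. Among AMPK-related kinases and the LKB1 complex, 18 genes besides BRSK1 and BRSK2 were tested, with a median log2 change of -0.29. MELK was lower (85.5 ± 18.8 against 25.5 ± 8.47 CPM, SD, n = 3, log2 change -1.77, edgeR adjusted p = 0.00383) and SIK3 was higher (20.1 ± 3.74 against 55.8 ± 3.79 CPM, log2 change 1.44, edgeR adjusted p = 0.00715). With the block 5 were lower (MARK3, MARK4, MELK, STK11 and STRADA) and SIK3 higher. A mixed list held polarity genes and others, such as MAPT, BSN, CDC25B and TSC2. Of its 14 genes tested besides PARD6A, 6 were lower and 0 higher, with a median of -0.27, and with the replicate block 6 and 0. They included the polarity kinase PRKCZ (log2 change -2.55), the scaffold SCRIB (-2.48) and the microtubule protein MAPT (-2.02).

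Of 12 Eph receptors and ephrins 1 was lower (EPHA2, log2 change -1.22) and 2 were higher (EPHA4, 4.45, and EFNB1, 1.85), with a median of -0.35, and with the replicate block 3 were lower and 2 higher. Of 16 ETS factors ELK1 was lower (-1.29) and GABPA higher (1.98), with a median of 0.12, and with the block 1 was lower and 2 were higher. Of 14 ID, HES and HEY repressors 4 were lower, among them BHLHE40 (-2.49) and ID3 (-2.35), and 3 were higher, among them ID2 (5.84) and BHLHE41 (2.70), with a median of 0.21, and with the block 4 were lower and 4 higher (HES1 added). Of 7 SOX factors 0 were lower and 3 higher (SOX15, 3.13, SOX4, 1.19, and SOX9, 0.92), with a median of 0.18, and with the block SOX12 was lower too. Of 19 forkhead factors 4 were lower, among them FOXP2 (-3.74), and 5 were higher, among them FOXO4 (2.36), FOXC1 (2.15) and FOXA3, which had no count in control and 11.9 ± 3.28 CPM in CYT, with a list median of 0.42, and with the block FOXA2 was lower too. Of 13 GADD45, BTG and TOB growth arrest genes 0 were lower and 5 higher, among them GADD45G (5.0), GADD45B (2.24), SESN1 (2.10) and BTG2 (1.93), with a median of 0.79, and with the block 7 were higher (TOB2 and SESN2 added). Of 8 decay factors that bind AU-rich elements HNRNPD was lower (-2.04) and 0 were higher, with a median of -0.27, and with the block KHSRP was lower too.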

How the data were processed

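RNA-seq of 3 control and 3 CYT-treated libraries of MDA-MB-231-DR cells was analysed, grouped by the sample titles. The authors deposited 1 table of raw counts and FPKM per gene for 58302 genes, made from reads aligned with Hisat2. The labels name FastQC 0.12.1 and hg38. The methods name StringTie for the FPKM. The program behind the counts, the annotation and the use of strand are not given in the sources used here. The FPKM, as the authors deposited them, were used for levels per length and, as alternatives, for a limma fit and for the rule of the set.

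CPM was the count over the summed gene counts of the library (13056270 to 17770102). Differential expression was fitted with edgeR 4.0.16 in R 4.3.3 (TMM, filterByExpr with a minimum count of 10, quasi-likelihood test, Benjamini-Hochberg adjustment over 15572 genes), checked on simulated counts. DESeq2 1.42.0 and limma 3.58.1 (log2 of FPKM plus 1) were alternatives, as were other normalizations, fold limits and filters, each library left out and, added after the data were seen, a correction on GC content. Same-numbered libraries deviated together from their group means (r = 0.187, 0.458 and 0.124), so the fit with the replicate number as a block was kept as an alternative. Control replicate 1 also deviated with CYT replicate 3 (r = 0.304) and control replicate 3 with CYT replicate 1 (r = 0.200).

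Members and lists were chosen with earlier results of these data known, and role groups were assigned by hand after the members' names were seen. Values per library are given for BRSK2 and MIG7, the 10 highest control means, the 10 largest fold reductions and up to 2 further members of each role group with the highest control mean, and for BRSK1 and BCAR3, chosen after their values were seen. The values of 2 members and of 1 list are not reported here. In each list up to 4 genes with the largest change past the threshold are named. Gene features came from GENCODE 29, in which 58039 gene identifiers were found, and promoters from RefSeq.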

Additional observations from a re-analysis of the deposited data

How the results depend on the processing

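The set held 416 genes when a ratio of at least 4 was asked for, 78 at 8 and 96 with the GC correction. It held 143 to 211 genes with 1 library left out, and 134 to 199 under the other control floors, normalizations and FPKM. The number of genes called was 2891 (without control replicate 3) to 5752 (without CYT replicate 2) with 1 library left out, against 4451, and 4392 to 5282 over limma, upper-quartile scaling, no filter and DESeq2. With the replicate number as a block, 6210 were called, 3090 lower against 2002. The labels do not say that same-numbered libraries were paired. Upper-quartile scaling moved the median log2 change of all genes to 0.1554 (1624 lower and 2879 higher, against 2002 and 2449), the GC correction to 0.1655 (2448 and 3703, 6151 in all), and the fit with no filter, which tests more low genes, to 0.4124. Called genes of the lists reported, 41 in all, came to 28 to 52 with 1 library left out. Per list the ranges were 0 to 2 for ETS, 1 to 3 for SOX, 3 to 8 for GADD45, BTG and TOB, 1 to 2 for AU-rich decay factors and 1 to 4 for Eph. Members included, the replicate block gave 8 for AMPK-related kinases, 5 for Eph and 2 for decay factors, and upper-quartile scaling gave 1 for ETS. Why these counts moved was not tested.

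The median log2 change of the members was -3.23 to -2.78 with 1 library left out. Of 360 alternative log2 changes of the 40 named members 9 moved by more than their standard error. None changed sign, which the rule of the set fixes in large part. The fall was larger without CYT replicate 1 for ARHGEF10 (-6.37), GNAZ (-5.40), NFIC (-3.54) and TAMM41 (-4.85). It was larger without CYT replicate 3 for JPT2 (-4.93) and PTGES3L-AARSD1 (-5.38, and -4.08 with the replicate block). Without control replicate 3 RAC3 came to -2.58, and without control replicate 1 RTEL1 came to -2.88. Levels under 1 CPM in CYT rest on few counts: 2, 11 and 6 members had at most 3 counts in CYT replicates 1, 2 and 3. Uneven libraries limit others, such as ZNF146 (standard error 0.94 on the log2 scale) and PTGES3L-AARSD1 (0.89).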

Other observations

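Several read-through genes had uneven values. BLOC1S5-TXNDC5, a read-through of 2 genes on chromosome 6, met the fold limit but not the separation of the groups, with 4992, 0 and 4259 counts in control replicates 1 to 3 and 0 in each CYT library. INO80B-WBP1 on chromosome 2 had 416, 0 and 0 counts in control and 0, 0 and 34 in CYT. Among the members, C15orf38-AP3S2 had 126, 96 and 739 counts in control and 1, 47 and 1 in CYT, while its part AP3S2 measured 68.4, 81.7 and 35.8 CPM in control and 29.3, 25.3 and 26.3 CPM in CYT. AL360181.3 had 135, 153 and 21 counts in control and 8, 2 and 18 in CYT, beside MTG1, which measured 32.4, 40.5 and 37.4 CPM in control and 10.7, 6.74 and 11.4 CPM in CYT. How reads were divided between these genes and their parts was not tested.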
